A study of Mus musculus with 4 samples.

Results

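DNA replication and S phase machinery was examined as a list of 41 mouse genes for origin licensing, helicase activation, DNA synthesis, chromatin assembly and the E2F factors that drive them. Each gene was represented by the probe set annotated with its symbol alone and, for Pcna and Slbp, which have more than 1, by the brightest over the arrays. All 41 members were found among the 19938 genes named on the array. The 4 samples were SV40-transformed mouse embryonic fibroblasts (MEFs) of C57BL/6 background, prepared at E13.5, and every one lacked both BAX and BAK, the effectors that open the outer mitochondrial membrane in apoptosis. They were p63-transduced cells treated with etoposide for 6 h, p63-transduced cells mock-treated for 6 h, GFP-transduced cells treated with etoposide for 6 h and GFP-transduced cells mock-treated for 6 h, with 1 array each. The virus was a retrovirus in both lines, and the sources used here do not give the promoter, species or isoform of the p63 insert. Etoposide traps topoisomerase II on broken DNA. Its dose is 10 µg per mL in the treatment protocol and 10 µg per µL elsewhere in the labels.

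A replication origin is licensed in G1 when the origin recognition complex, Cdc6 and Cdt1 load the ring of MCM helicase subunits onto DNA. At the start of S phase the kinase Cdc7 with its activator Dbf4, together with Mcm10, Cdc45 and the GINS complex, turns the loaded rings into moving helicases, and primase, the replicative polymerases and the sliding clamp PCNA follow. Many of these genes are transcribed in late G1 by E2F factors, which the retinoblastoma protein restrains. The SV40 large T antigen binds that protein and p53.

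Signals are log2 values made by the authors with RMA, and a difference of 1 is a 2-fold difference. No condition was replicated, so sizes are given without a test or an error, and the number of arrays limits the precision. A gene is called higher or lower at 2-fold. A gene was kept for the counts over all genes where its highest signal reached 5.87, the median of the named probe sets, and 10698 genes were kept, including all 41 members. E2f2 alone among the members read below that level on any array. Trp63, the transduced gene, read 9.29 and 8.75 in etoposide- and mock-treated p63 cells, against 5.59 and 4.87 in the GFP cells of the same treatments. Bak1 was at 5.41 to 5.71 on all 4 arrays, below the filter, and the position of its probes against the deletion is unknown here. Of 10 fibroblast markers 6 were above the filter on all arrays, among them Col1a1 and Vim, while Thy1, Pdgfra and Lum were below it on all of them. No endothelial marker reached the filter on any array. Of the 4 haematopoietic markers found only Cd68 did, at 6.87 in etoposide-treated and 5.196 in mock-treated p63 cells, and at 6.78 in etoposide-treated and 6.05 in mock-treated GFP cells. Among the simple-epithelial markers Epcam, Cdh1 and Krt18 stayed below the filter, while Krt8 and Krt19 were above it on all arrays. Krt8 was at 5.93 and 6.98 in etoposide- and mock-treated p63 cells, against 6.22 and 5.97 in GFP cells, and Krt19 was at 10.54 and 10.15 in etoposide- and mock-treated p63 cells, against 7.48 and 6.66 in GFP cells under the same treatments. The summed signal of the fibroblast markers (log2) was 14.1 and 14.1 in etoposide- and mock-treated p63 cells, against 14.3 and 14.5 in GFP cells, and that of the simple-epithelial markers was 10.7 and 10.4, against 8.50 and 7.97. The part of these marker differences in the results was not tested.

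One array, mock-treated p63, stood apart for more genes than any other, though for few of those kept. It lay at least 1 from every other array, with those within 0.5 of one another, for 78 of 10698 genes. The counts were 22 for mock-treated GFP cells, 2 for etoposide-treated p63 cells and 1 for etoposide-treated GFP cells. Among the 78 were 2 of the 41 members, Mcm10 and Cdt1. With arrays centred Mcm10 lay 0.81 below etoposide-treated p63 cells, short of that rule. The median of all genes kept was 7.68 and 7.48 in etoposide- and mock-treated p63 cells, against 7.60 and 7.69 in GFP cells. Results that rest on the p63 mock array are therefore given beside values from the other arrays. The etoposide difference in p63 cells and the p63 difference in mock-treated cells share that array, so a low value on it enters both. Centring the arrays on their medians shifts each pairwise difference by up to 0.21, so directions are read against the median of all genes. It also moves the split of 2-fold calls over all genes. The shares higher and lower became 3.80% and 2.46% for etoposide in p63 cells, 4.38% and 1.54% for etoposide in GFP cells, and 3.81% and 1.89% for p63 in mock-treated cells. After cyclic loess the p63 shares in mock-treated cells were 3.13% and 2.21%.

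As deposited, replication transcripts were mostly lowest in mock-treated p63 cells and lay close together on the other arrays. The p63 mock array held the lowest of the 4 signals for 35 of 41 members (85.4%), against 40.4% of all genes kept. With arrays centred its signal was above that of mock-treated GFP cells for 13 members, so it was the lowest for fewer than 35. The other 3 arrays lay within 0.5 of one another for 37 members, and their median range was 0.24. Etoposide-treated GFP cells held the highest signal for 19 members, etoposide-treated p63 cells for 11, mock-treated GFP cells for 10 and mock-treated p63 cells for 1. Neither that range nor the counts by highest array were computed over all genes. They are therefore not read as particular to the members. The parts that the state of this culture, its cell cycle distribution and p63 itself play in the single low array cannot be told apart with 1 array per condition. In bulk RNA, fewer cells in S phase and less RNA per S phase cell cannot be told apart either.

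**Figure D1:**
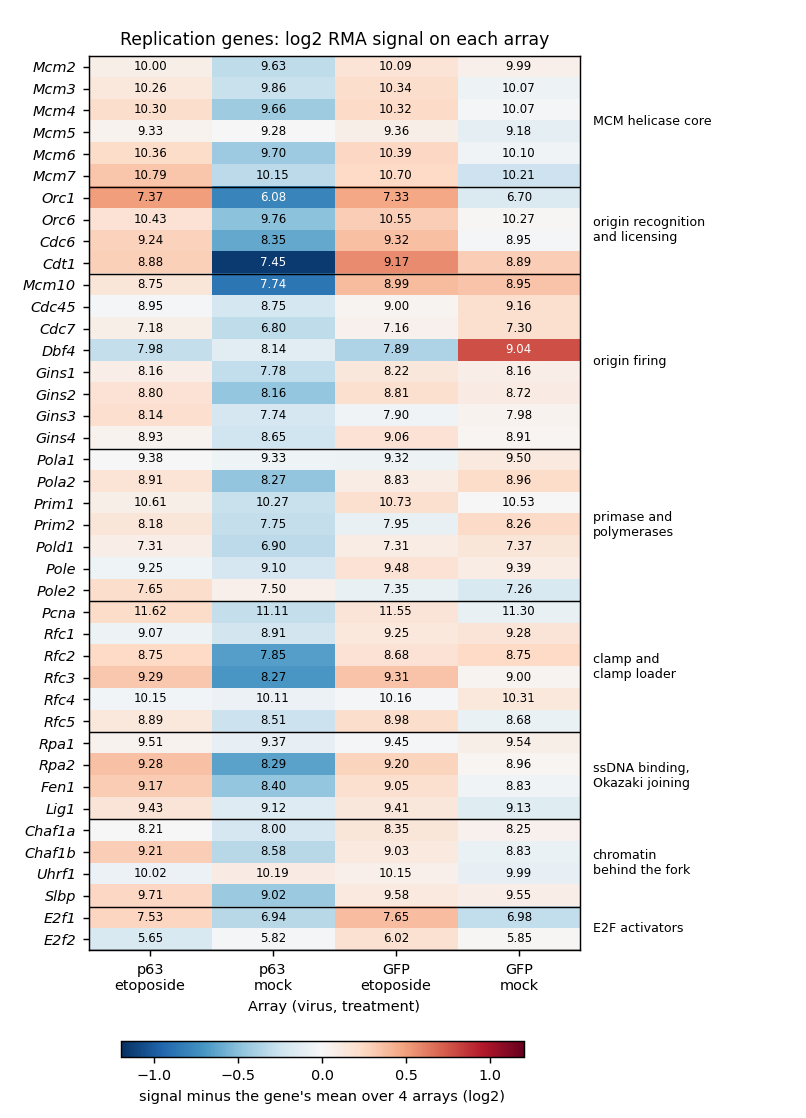
The log2 RMA signal of each of the 41 members (rows, by role) is printed on each of the 4 arrays (columns), and colour gives its distance from the gene's mean over the arrays. As deposited, the p63 mock column is the lowest for 35 members, and Dbf4 stands out by its high mock-treated GFP signal, at 9.04.

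After etoposide the members stood higher than mock in p63 cells, by a median of 0.40 against 0.097 for all genes kept. In GFP cells the median was 0.16, against -0.083 for all genes. The members thus lay 0.30 and 0.24 above the typical gene in p63 and GFP cells. Above the median of all genes lay 35 members in p63 cells and 33 in GFP cells, against 5349 of 10698 genes kept. Centring shifts every gene alike and cannot change these counts. At 2-fold, 4 members (9.76%) were higher in p63 cells, against 6.28% of all genes, and 0 were lower, against 1.33%. In GFP cells 0 were higher, where 3.52% of all genes were, and 1 (2.44%) was lower, where 2.12% were. Counts at 2-fold were therefore near the level of all genes. Smaller shifts were, as deposited, more common among members in p63 cells: 17 (41.5%) were at least 1.5-fold higher, against 16.5%, and 0 were 1.5-fold lower, against 5.5%. That count of 17 was 7 with arrays centred and 8 after cyclic loess. Shares of all genes at 1.5-fold were not computed under those scalings, here or below. In GFP cells 2 (4.88%) were 1.5-fold higher and 1 (2.44%) was 1.5-fold lower, against 9.28% and 9.48%. Differences above 0 were read for 38 members (92.7%) in p63 cells and for 29 (70.7%) in GFP cells, against 59.5% and 41.2% of all genes. With arrays centred the counts above 0 were 31 and 34, where the medians of all genes were -0.0996 in p63 cells and 0.015 in GFP cells. The share of all genes above 0 was not computed with arrays centred for any comparison. Centred counts above 0 therefore have no such share beside them. With the mock-treated GFP array standing in for the mock-treated p63 array, the median difference of etoposide-treated p63 cells was 0.074, against -0.053 for all genes, and 0 members were called higher.

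Between the lines, p63 cells stood below GFP cells when mock-treated and, as deposited, level with them after etoposide. The median of p63 minus GFP was -0.37 in mock-treated cells, against -0.14 for all genes, and -0.020 after etoposide, against 0.024. In mock-treated cells 0 members were 2-fold higher and 2 (4.88%) were 2-fold lower with p63, against 2.42% and 3.76% of all genes. At 1.5-fold 0 were higher and 9 (22.0%) were lower, against 6.74% and 16.1%, and 4 were lower under either scaling alternative. Only 3 members (7.32%) were above 0, against 36.1%, and 13 were with arrays centred. Above the median of all genes lay 7 members. After etoposide no member reached 1.5-fold in either direction, where 4.91% of all genes were higher and 1.87% lower, and at 2-fold those shares were 1.38% and 0.514%. In that comparison 17 members (41.5%) were above 0, against 54.4%, and 15 were above the median of all genes. The members spanned -0.37 to 0.30 there, with an SD of 0.14 across genes, where that of all genes was 0.36. With arrays centred 9 members were above 0 after etoposide and the median was -0.10, against -0.0575 for all genes. The centred median in mock-treated cells was -0.16, against 0.071 for all genes.

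**Figure D2:**
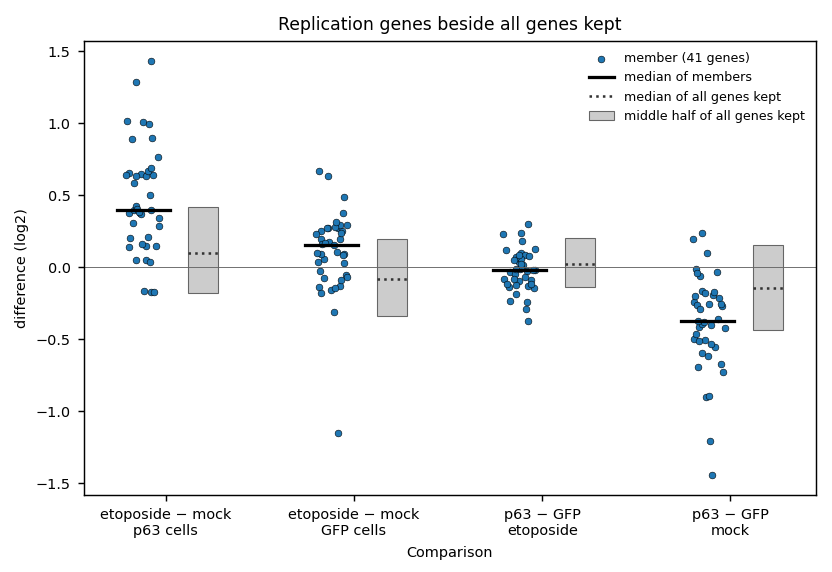
Points are the log2 differences of the 41 members in each comparison, with their median as a solid line. Grey bars span the interquartile range of the 10698 genes kept, with their median dotted. Members sit above the typical gene after etoposide in both lines, with medians of 0.40 in p63 and 0.16 in GFP cells, and below it for p63 over GFP in mock-treated cells, at -0.37.

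The licensing genes had the highest median after etoposide in p63 cells of the 8 role groups. Cdt1, which brings the MCM ring to the origin, was at 8.88 in etoposide-treated and 7.45 in mock-treated p63 cells, and at 9.17 in etoposide-treated and 8.89 in mock-treated GFP cells. Only mock-treated p63 cells were low, and the other arrays lay within 0.29. Its etoposide difference was 1.43 in p63 cells, or 2.70-fold, and 0.28 in GFP cells. p63 minus GFP was -0.29 after etoposide and -1.44 in mock-treated cells, 2.71-fold lower with p63. With arrays centred that mock difference was -1.23, and after cyclic loess -1.21. Etoposide-treated p63 cells differed from mock-treated GFP cells by -0.010.

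Orc1, the largest subunit of the origin recognition complex and the one whose level varies through the cycle, was at 7.37 in etoposide-treated and 6.08 in mock-treated p63 cells, and at 7.33 and 6.70 in etoposide- and mock-treated GFP cells. Both etoposide arrays were high and both mock arrays low. Etoposide minus mock was 1.29 in p63 cells, or 2.44-fold, and 0.63 in GFP cells, or 1.55-fold, and etoposide-treated p63 cells stood 0.67 above mock-treated GFP cells. Cdc6, the loading ATPase, also had both etoposide arrays above both mock arrays, with 9.24 and 8.35 in etoposide- and mock-treated p63 cells and 9.32 and 8.95 in GFP cells. Its differences were 0.89 in p63 and 0.37 in GFP cells. The recognition complex subunit Orc6 was at 10.43 and 9.76 in etoposide- and mock-treated p63 cells and at 10.55 and 10.27 in such GFP cells, differences of 0.67 and 0.28. The median of these 4 genes after etoposide was 1.09 in p63 cells and 0.33 in GFP cells, and it stayed at 0.90 and 0.42 with arrays centred.

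Promoters of the 5 members called in any comparison are printed because these genes carry the 2-fold differences and E2F sites are the best known regulatory feature of this gene class. The sequences are from RefSeq (GRCm38.p6), run 5′ to 3′ on the gene's strand from 250 bases before the annotated start to 30 after it, and capitals mark matches on either strand to the E2F words, the CCAAT box or the cell cycle homology region (CHR) words defined in the next paragraph.
Cdt1 (chr8:122567765-122568044, plus strand): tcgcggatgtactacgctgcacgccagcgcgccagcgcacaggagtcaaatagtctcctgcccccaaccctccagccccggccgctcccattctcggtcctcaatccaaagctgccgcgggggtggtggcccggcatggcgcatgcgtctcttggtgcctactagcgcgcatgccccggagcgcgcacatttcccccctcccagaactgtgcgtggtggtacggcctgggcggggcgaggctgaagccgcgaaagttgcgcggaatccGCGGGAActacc
Mcm10 (chr2:5012762-5013041, minus strand): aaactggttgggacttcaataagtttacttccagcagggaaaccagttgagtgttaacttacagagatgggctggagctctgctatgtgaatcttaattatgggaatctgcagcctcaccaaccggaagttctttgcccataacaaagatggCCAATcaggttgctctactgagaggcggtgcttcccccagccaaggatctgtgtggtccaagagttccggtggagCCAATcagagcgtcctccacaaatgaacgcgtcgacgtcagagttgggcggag
Orc1 (chr4:108579204-108579483, plus strand): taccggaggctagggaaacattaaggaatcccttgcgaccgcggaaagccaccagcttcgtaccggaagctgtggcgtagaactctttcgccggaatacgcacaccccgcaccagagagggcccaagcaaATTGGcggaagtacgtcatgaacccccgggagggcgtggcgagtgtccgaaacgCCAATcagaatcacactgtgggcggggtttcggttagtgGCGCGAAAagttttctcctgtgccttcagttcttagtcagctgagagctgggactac
Rfc3 (chr5:151651179-151651458, minus strand): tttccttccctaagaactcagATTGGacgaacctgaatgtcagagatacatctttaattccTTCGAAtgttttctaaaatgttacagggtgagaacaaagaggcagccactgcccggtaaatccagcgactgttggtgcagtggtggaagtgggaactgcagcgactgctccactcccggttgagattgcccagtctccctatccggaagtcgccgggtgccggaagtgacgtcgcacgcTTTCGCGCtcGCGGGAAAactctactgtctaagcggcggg
Dbf4 (chr5:8422687-8422966, minus strand): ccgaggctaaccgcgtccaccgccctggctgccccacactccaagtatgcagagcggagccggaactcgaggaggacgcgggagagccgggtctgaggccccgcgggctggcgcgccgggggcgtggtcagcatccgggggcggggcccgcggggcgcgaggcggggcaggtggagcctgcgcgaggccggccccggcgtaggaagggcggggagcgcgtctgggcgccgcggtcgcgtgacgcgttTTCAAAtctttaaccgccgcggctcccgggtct

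The E2F words were TTTCCCGC, TTTGGCGC, TTTCGCGC and TTTGCCGC, with a shorter set that drops the first T of each and so lies inside them. CCAAT stood for the binding site of NF-Y, and TTTGAA and TTCGAA for the CHR, and both strands were read over the whole table window of 300 bases. Of 41 members 34 had an entry, 6 of them with several starts, and Mcm4, Gins1, Gins2, Gins4, Prim2, Pole and Rfc2 had none. The only E2f1 entry starts inside the annotated gene, so E2f1 counts below as a gene without a match although the window may miss its main start. An 8-letter E2F word lay in the window of 15 of those 34 genes (44.1%), against 2.60% of 27025 genes in the table. For the shorter words the counts were 23 of 34 (67.6%), against 10.9%. CCAAT was found for 21 (61.8%), against 41.1%, and the CHR words for 9 (26.5%), against 21.7%. Orc1 had an E2F word 27 bases before its start and CCAAT on both strands. Rfc3 had a pair of E2F words at its start, beginning 10 bases before it and at base 1 after it. Cdt1 had a shorter word from base 19 after its start and an 8-letter word from base 33, beyond the stretch printed. Mcm10 held CCAAT and no E2F word, and Dbf4 held a CHR word 3 bases before its start and no E2F word. A match describes letters, not binding. The 15 members with an 8-letter word had medians of 0.40 and 0.27 after etoposide in p63 and GFP cells, and the 19 without had 0.39 and 0.097.

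The 6 subunits of the MCM ring unwind DNA as a single complex, and their etoposide differences ran from 0.050 to 0.65 in p63 cells and from 0.11 to 0.49 in GFP cells. Mcm7 was at 10.79 and 10.15 in etoposide- and mock-treated p63 cells and at 10.70 and 10.21 in GFP cells, so both treated arrays were above both mock arrays. Its etoposide differences were 0.65 and 0.49, and it was the third highest member in GFP cells. Mcm4 and Mcm6 stood at 0.64 and 0.65 in p63 cells and 0.25 and 0.29 in GFP cells, and Mcm2 and Mcm3 at 0.37 and 0.40 in p63 cells and 0.11 and 0.27 in GFP cells. Mcm5 differed from its partners, at 9.33 and 9.28 in etoposide- and mock-treated p63 cells and 9.36 and 9.18 in such GFP cells. As deposited, Mcm5 was 1 of the 3 members whose signal was not below GFP in mock-treated p63 cells, by 0.097. With arrays centred Mcm7 and Mcm3 were not below GFP there either, at 0.15 and 0.0032. The etoposide difference of Mcm5 in p63 cells, 0.050, changed sign when arrays were centred or loess-normalized. The median of the ring after etoposide was 0.52 in p63 cells and 0.26 in GFP cells, and with arrays centred the order of the lines turned, at 0.32 and 0.36.

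Among the genes that fire the licensed origin, Mcm10 and Dbf4 had unlike patterns. Mcm10, which helps the assembled helicase start to unwind, was at 8.75 in etoposide-treated and 7.74 in mock-treated p63 cells, and at 8.99 and 8.95 in etoposide- and mock-treated GFP cells. As for Cdt1, 1 array was low and the other 3 lay within 0.24. Its etoposide difference was 1.01 in p63 cells and 0.040 in GFP cells, and p63 minus GFP was -0.24 after etoposide and -1.21 in mock-treated cells. The value of 1.01 fell short of 2-fold with arrays centred, at 0.81, and after cyclic loess, at 0.88, and the mock difference of -1.21 did too, at -0.997 and -0.98. Etoposide-treated p63 minus mock-treated GFP cells was -0.20.

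Dbf4, an activating subunit of the kinase Cdc7, was the 1 member called lower after etoposide. It read 7.98 in etoposide-treated and 8.14 in mock-treated p63 cells, with 7.89 and 9.04 in etoposide- and mock-treated GFP cells. Mock-treated GFP cells were the high array, and the other 3 lay within 0.25. Its etoposide difference was -0.16 in p63 cells and -1.15 in GFP cells, 2.22-fold lower, while p63 minus GFP was 0.085 after etoposide and -0.90 in mock-treated cells. The GFP value kept its call at -1.05 with arrays centred and -1.01 after cyclic loess. Cdc7 itself, the kinase, had differences of 0.37 in p63 cells and -0.14 in GFP cells.

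Cdc45, a component of the active helicase, was at 8.95 and 8.75 in etoposide- and mock-treated p63 cells and at 9.00 and 9.16 in GFP cells, with etoposide differences of 0.20 and -0.16. Of the GINS subunits, which hold Cdc45 to the ring, Gins3 read 8.14 and 7.74 in etoposide- and mock-treated p63 cells and 7.90 and 7.98 in such GFP cells, and was 0.24 higher with p63 after etoposide. Gins1, Gins2 and Gins4 stood at 0.37, 0.64 and 0.29 after etoposide in p63 cells and at 0.058, 0.096 and 0.16 in GFP cells. All 8 firing genes were lower with p63 in mock-treated cells as deposited, with a median of -0.45, which became -0.24 with arrays centred. Their median after etoposide was 0.37 in p63 cells and -0.019 in GFP cells, and the GFP value turned to 0.079 with arrays centred and 0.12 after cyclic loess.

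Primase and polymerase genes had a median after etoposide of 0.34 in p63 cells and -0.054 in GFP cells, the lowest of the role groups there, which turned to 0.044 with arrays centred and 0.037 after cyclic loess. Prim2, the large primase subunit, was at 8.18 and 7.75 in etoposide- and mock-treated p63 cells and at 7.95 and 8.26 in GFP cells, so its differences of 0.43 and -0.31 had opposite signs. Prim1, the catalytic primase subunit, read 10.61 and 10.27 in p63 cells and 10.73 and 10.53 in GFP cells, each treated value above its mock value, with differences of 0.34 and 0.20. Pola2, the accessory subunit of polymerase alpha, stood at 0.64 and -0.13, while Pola1, its catalytic subunit, was nearly level at 9.38 and 9.33 in p63 cells and 9.32 and 9.50 in GFP cells.

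Pold1, the catalytic subunit of the lagging-strand polymerase delta, had etoposide differences of 0.40 in p63 cells and -0.054 in GFP cells. Pole, the catalytic subunit of the leading-strand polymerase epsilon, was at 9.25 and 9.10 in etoposide- and mock-treated p63 cells and at 9.48 and 9.39 in GFP cells, lower with p63 by 0.23 after etoposide (-0.23) and 0.29 in mock-treated cells (-0.29). Pole2, a second subunit, went the other way with p63, at 7.65 and 7.50 in p63 cells and 7.35 and 7.26 in GFP cells. It was 0.30 higher after etoposide and 0.24 higher in mock-treated cells, the highest value among the members in both comparisons.

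The sliding clamp and the complex that loads it split between large and small differences. Pcna, the clamp, was at 11.62 and 11.11 in etoposide- and mock-treated p63 cells and at 11.55 and 11.30 in GFP cells, with both treated arrays above both mock arrays. The etoposide differences were 0.50 and 0.25, and a second probe set gave 0.52 and 0.26. The sources used here do not say whether either probe set also reads a copy of the gene elsewhere in the genome. Rfc3, a small subunit of the clamp loader, read 9.29 and 8.27 in p63 cells and 9.31 and 9.00 in GFP cells. Its difference of 1.02 in p63 cells was 2.02-fold, its difference in GFP cells was 0.31, and the first was 0.82 with arrays centred and 0.88 after cyclic loess. Rfc2, another subunit, was at 8.75 and 7.85 in p63 cells and 8.68 and 8.75 in GFP cells, so that only mock-treated p63 cells were low. Its differences after etoposide were 0.90 and -0.065. Rfc4 was almost flat, at 10.15 and 10.11 in p63 cells and 10.16 and 10.31 in GFP cells. Rfc1, the largest subunit, had etoposide differences of 0.16 in p63 cells and -0.028 in GFP cells, and Rfc5 had 0.39 and 0.29.

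Single-strand binding and fragment joining genes leaned the same way as the ring. Rpa2, the middle subunit of the single-strand binding protein RPA and a target of the damage kinases, had etoposide differences of 0.995 in p63 cells and 0.24 in GFP cells, the first just below 2-fold. Rpa1, its large subunit, was nearly level, at 9.51 and 9.37 in etoposide- and mock-treated p63 cells and 9.45 and 9.54 in GFP cells. Fen1, the flap nuclease that trims Okazaki fragments, stood at 0.77 and 0.23. Lig1, the ligase that seals them, was at 9.43 and 9.12 in p63 cells and 9.41 and 9.13 in GFP cells. As deposited, p63 minus GFP was 0.023 after etoposide and -0.0095 in mock-treated cells, and with arrays centred -0.059 and 0.20. Its etoposide differences of 0.31 in p63 and 0.28 in GFP cells became 0.11 and 0.37 with centring.

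Genes that rebuild chromatin behind the fork were mixed. Chaf1b, a subunit of the histone chaperone CAF-1, read 9.21 and 8.58 in etoposide- and mock-treated p63 cells and 9.03 and 8.83 in GFP cells, with differences of 0.63 and 0.19, and its large subunit Chaf1a stood at 0.21 and 0.10. Slbp, which binds the stem-loop of histone mRNAs, stood at 0.69 and 0.032, and a second probe set gave 0.69 and -0.084. Uhrf1, which brings the maintenance methyltransferase to new DNA, was the 1 member with its highest signal in mock-treated p63 cells, at 10.19, against 10.02 after etoposide. It read 10.15 and 9.99 in etoposide- and mock-treated GFP cells. Its etoposide differences of -0.17 and 0.16 had opposite signs.

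The E2F activators hardly differed between the lines in mock-treated cells, with a median of -0.034 for p63 minus GFP that turned to 0.18 with arrays centred. E2f1 was at 7.53 and 6.94 in etoposide- and mock-treated p63 cells and at 7.65 and 6.98 in GFP cells. Both treated arrays lay above both mock arrays with differences after etoposide of 0.59 in p63 cells and 0.67 in GFP cells, or 1.5-fold and 1.59-fold. Orc1 and E2f1 were the members at least 1.5-fold higher in both lines, 2 of 41 (4.88%), against 6.71% of all genes kept. E2f1 lay at the threshold in p63 cells, with 0.39 when arrays were centred and 0.47 after cyclic loess, so Orc1 alone passed in both lines under those scalings. E2f2 was dim, at 5.65 and 5.82 in p63 cells and 6.02 and 5.85 in GFP cells, with 3 arrays below the filter, and its differences rest on signals close to the filter.

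Across the members the etoposide differences of the lines, which share no array, correlated at 0.48 (Pearson) and 0.48 (Spearman) over 41 genes, against 0.63 and 0.52 over all genes kept. These are descriptions across genes on 4 arrays that were normalized together. Differences above 0 in both lines were found for 27 members (65.9%), against 31.8% of all genes kept. A gap of at least 1.5-fold upward was found for 10 members (24.4%), against 16.7% of all genes, and 0 had one downward, against 4.94%. With arrays centred or loess-normalized the upward count was 4. The etoposide difference was larger in p63 than in GFP cells for 37 members (90.2%), against 69.3% of all genes, with a median gap of 0.36 against 0.20. Above that median gap of all genes lay 26 members. With arrays centred, 22 members had the larger difference in p63 cells and the median gap was 0.064, against -0.099 for all genes. Only Cdt1 (2.44%) had a gap of at least 1, at 1.15, against 2.84% of genes with such a gap upward and, with 0 members, 1.09% downward. It was 0.86 with arrays centred and 0.88 after cyclic loess, where the shares of all genes with a gap of at least 1 were 0.785% upward and 3.19% downward with centring and 1.62% and 1.197% with loess.

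**Figure D3:**
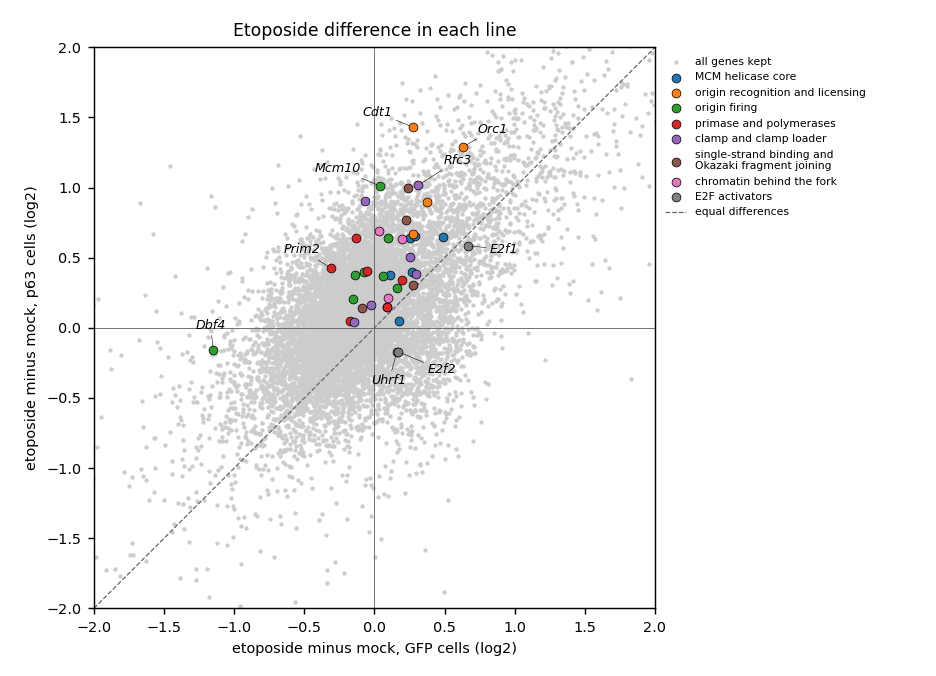
Each point is a gene, with its etoposide minus mock difference (log2) in GFP cells on the horizontal axis and in p63 cells on the vertical axis. Members are coloured by role, grey points are the genes kept that fall within 2 of zero on both axes, and the dashed line marks equal differences. Of 41 members 37 lie above the line, with Cdt1 at 1.43 and Orc1 at 1.29 in p63 cells, and Dbf4 lies alone at -1.15 in GFP cells.

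The p63 differences under mock and etoposide treatment, which also share no array, were hardly related across members, at 0.15 (Pearson) and -0.056 (Spearman) over 41 genes. Over all genes kept they were 0.59 and 0.39. As deposited, Pole2 was the member higher with p63 under both treatments, and Cdt1, Mcm10 and Pole were lower by 0.23 or more under both. With arrays centred Mcm7 was higher under both too, at 0.017 after etoposide and 0.15 in mock-treated cells. The mock difference of Pole shrank to -0.078 with arrays centred and -0.068 after cyclic loess.

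**Figure D4:**
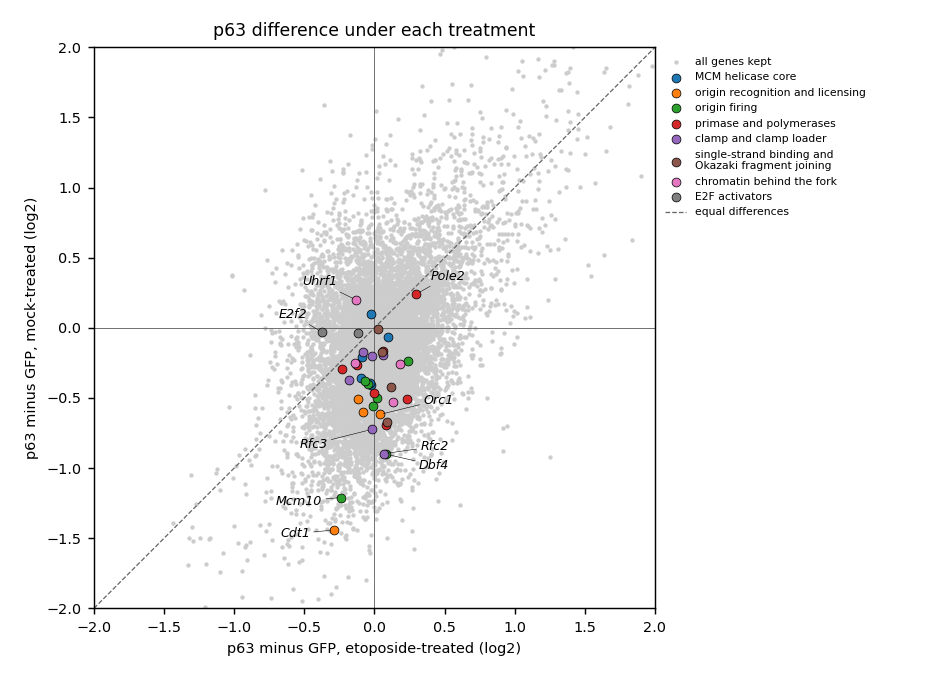
Each point is a gene, with p63 minus GFP (log2) in etoposide-treated cells on the horizontal axis and in mock-treated cells on the vertical axis, drawn and coloured by role as for the etoposide differences. The members form a vertical band between -0.37 and 0.30 on the horizontal axis that reaches down to -1.44 at Cdt1 on the vertical axis.

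Other genes of the same pathways gave the surroundings, and their values are given as deposited. Centring lowers every etoposide difference in p63 cells and raises every one in GFP cells, so the medians of these lists shift too. Of 37 further licensing and fork genes, all kept, the medians after etoposide were 0.23 in p63 cells and -0.10 in GFP cells, and 1 was called higher in p63 cells and 0 in any other direction or line, where 6.28% of all genes were higher and 1.33% lower in p63 cells and 3.52% and 2.12% in GFP cells. That gene was Pole4, a small subunit of polymerase epsilon, at 1.02, which falls short of 2-fold with arrays centred. With p63 the same list had medians of -0.053 after etoposide and -0.33 in mock-treated cells. Of 8 nucleotide supply genes, Rrm2, the regulated subunit of ribonucleotide reductase, was called higher after etoposide in both lines, at 1.63 in p63 and 1.19 in GFP cells. Dck, a nucleoside salvage kinase, was called in p63 cells, at 1.399, and stood at 0.68 in GFP cells. None of 10 replication checkpoint genes was called after etoposide, beside those same shares of all genes, with medians of 0.24 in p63 and -0.21 in GFP cells.

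Of 32 G1/S control genes kept, with medians after etoposide of 0.27 in p63 and -0.12 in GFP cells, 5 were called higher and 1 lower after etoposide in p63 cells, and 2 were higher and 2 lower in GFP cells. The shares of all genes were 6.28% and 1.33% in p63 cells and 3.52% and 2.12% in GFP cells. Rb1, which encodes the retinoblastoma protein, was at 9.45 and 8.05 in etoposide- and mock-treated p63 cells and at 8.99 and 7.29 in GFP cells, higher by 1.41 and 1.70. Cdkn1b, which encodes the cyclin-dependent kinase inhibitor p27, was lower in both lines, at -1.395 and -1.43. The repressive E2F genes E2f7 and E2f8 stood at 1.15 and 1.001 in p63 cells and 0.55 and 0.014 in GFP cells. Among the cyclins, Ccne2 was at 0.68 and 1.04, and Ccne1 at 0.26 and -0.036. Cdc25a, a phosphatase that activates cyclin-dependent kinases, was called in p63 cells, at 1.08, against 0.026 in GFP cells. Cdk6, a partner of the D-type cyclins, stood at 0.39 in p63 cells and -1.04 in GFP cells, and at -1.94 for p63 over GFP in mock-treated cells. Centring takes the etoposide differences of E2f7, E2f8 and Cdc25a in p63 cells and of Cdk6 in GFP cells short of 2-fold. Ccnd1, cyclin D1, read 8.30 in etoposide-treated p63 cells against 9.74 in etoposide-treated GFP cells, and 5.99 in mock-treated p63 cells against 8.97 in mock-treated GFP cells. It was the 1 gene of these lists called lower with p63 under both treatments, at -1.44 after etoposide and -2.98 in mock-treated cells, and its etoposide difference was 2.32 in p63 cells and 0.77 in GFP cells.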

How the data were processed

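Total RNA, extracted with Trizol and amplified and biotin-labelled with a NuGEN kit for picogram amounts per the labels' protocols, was measured on Affymetrix arrays. The deposited values are log2 signals. Per the submitters' processing notes the authors used RMA and Affymetrix Expression Console. RMA normalizes probe signals between arrays, which can remove shifts shared by all genes. Probe set values still had an SD of 2.28 in mock-treated p63 cells, the lowest, and of 2.37 to 2.39 on the other arrays. Values ran from 1.27 to 14.4, from which the log base was read.

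Of 35512 probe sets, 21789 had exactly 1 symbol in a platform annotation, 1621 had several and 12102 were not listed. Identifiers of 21698 matched RefSeq. The brightest probe set per gene was used, and genes whose highest signal reached 5.87 were kept. Etoposide was set against mock within each line and p63 against GFP within each treatment, the gap between both etoposide differences was taken, and calls were made at 2-fold across all genes. The calling code was run on simulated shifts set above the threshold, which checks the code and says nothing of the noise in these arrays. With 1 array per group no test was made. Every member is named. Values on all arrays are given for members called in a comparison, the 4 highest and 4 lowest of each comparison, and the brightest of each of 8 role groups. Other genes of the pathway lists are named where called in both comparisons of an effect or fixed by name, and Pole4, Dck, Cdc25a and Cdk6 were named after their values were seen. The members and lists were chosen with earlier results of these data known. Alternatives covered scaling (centring, cyclic loess in limma 3.58.1), probe set choice, filters and a 1.5-fold threshold.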

Additional observations from a re-analysis of the deposited data

Results flagged for a closer look

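Several members had effects of opposite sign in the groups compared, at sizes of at least 0.1 on each side, and these differences were not tested. For etoposide minus mock, p63 and GFP cells differed in sign for 6 members. The values were 0.20 and -0.16 for Cdc45, a gap of 0.36, 0.37 and -0.14 for Cdc7 (gap 0.51), 0.64 and -0.13 for Pola2 (gap 0.77), and 0.43 and -0.31 for Prim2 (gap 0.74). Uhrf1 and E2f2 went the other way, with -0.17 and 0.16 (gap -0.33) and with -0.17 and 0.17 (gap -0.34). For p63 minus GFP, etoposide- and mock-treated cells differed in sign for Prim2 and Uhrf1 again and for 4 others. These were Gins3 at 0.24 and -0.24 (gap 0.48), Fen1 at 0.12 and -0.42 (gap 0.54), Chaf1b at 0.18 and -0.26 (gap 0.44) and Slbp at 0.13 and -0.53 (gap 0.66). Except for Uhrf1 and E2f2, the p63 mock array was the lowest of the 4 for all of them. With smaller sizes included, 13 members had opposite signs for etoposide and 18 for p63. Centring the arrays turned the etoposide difference of 7 members in p63 cells and 5 in GFP cells, and the p63 difference of 8 members after etoposide and 10 in mock-treated cells, so signs near 0 depend on scaling.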

How the results depend on the processing

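Of 36 median differences recomputed under the alternatives, 0 changed sign and 29 moved by less than 0.1 (log2). Most of the 29 came from filters, probe set choice and dim readings, which touched few members and could hardly move a median. The other 7 all came from centring, cyclic loess or the stand-in mock array described below. With arrays centred, the members' median was 0.20 for etoposide in p63 cells, -0.16 for p63 over GFP in mock-treated cells and 0.064 for the gap between the etoposide differences, and after cyclic loess these were 0.28, -0.15 and 0.089. Centring left 2 members higher after etoposide in p63 cells, 1 lower with p63 in mock-treated cells and 0 with a gap of 1, and cyclic loess gave the same counts, 2, 1 and 0. At 1.5-fold 17 members were higher after etoposide in p63 cells, 2 in GFP cells, 9 were lower with p63 in mock-treated cells and 10 had a larger gap. Added after seeing the data, centring at 1.5-fold gave 7 higher in p63 cells, 4 lower with p63 in mock-treated cells, 4 with the gap and 1 higher in both lines, and cyclic loess gave 8, 4, 4 and 1. With the mock-treated GFP array in place of the p63 one, an alternative added after seeing the data, etoposide-treated p63 cells had a median of 0.074, 0 members higher and 1 lower (Dbf4). Filters, probe set choice and dim readings raised to the filter changed no median of the members by 0.1 and no count by over 1.5 times. The median of all genes, against which directions are read, did depend on the filter. With no filter it was -0.0335 for etoposide in p63 cells and 0.040 in GFP cells. For p63 over GFP it was then 0.027 in mock-treated cells and -0.0335 after etoposide, and -0.021 for the gap. With the filter at the 75th percentile the median of all genes was -0.20 for p63 over GFP in mock-treated cells and 0.24 for the gap. The members' medians there were -0.37 and 0.36. Members were brighter than the typical gene kept, with a median signal of 8.51 against 7.48 in mock-treated p63 cells. All genes kept are thus a background not matched in brightness. A filter on the mean left out E2f2, and one at the 75th percentile (7.82) kept 35 members. One array per condition limits every value, and the sign of differences near 0 is not settled.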
